A study of Mus musculus with 12 samples.

Results

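Zinc finger genes of the mouse Zfp nomenclature were described across striatal synaptosomes and the polyribosomes isolated from them. The genes were chosen by their level: protein-coding, a symbol of Zfp with digits and an optional letter, and a mean normalized value of 200 or more over the 12 libraries. This gave 284 of the 376 protein-coding Zfp genes in the table, which lists 21492 genes in all. A further 91 fell below the threshold, and Zfp609 was left out by the rule. The mice were C57BL/6J males of age P70 (postnatal day 70), either wild type (WT) or Shank3 TG, and their striatum was used. The TG mice carry a transgene for the postsynaptic scaffold Shank3. Synaptosomes are pinched-off nerve terminals with attached postsynaptic membrane. In each genotype, 3 libraries were made from the synaptosomal RNA (input) and 3 from synaptosomal polyribosome RNA (polysome), with a stranded kit for total RNA. The sources used here give neither the promoter of the transgene nor whether animals were pooled.

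Most Zfp genes encode C2H2 proteins, in which a pair of cysteines and a pair of histidines hold a zinc ion and fold a short finger that reads DNA or, in some members, RNA. Fingers stand in arrays joined by a conserved linker, and array length sets how long a site can be read. Many mouse members also carry a KRAB box, which recruits the corepressor Trim28 and, through it, the histone methyltransferase Setdb1 to silence transposable elements and imprinted genes. Other members assemble chromatin complexes, process RNA or act on the ribosome.

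The 284 genes covered most of this range. A KRAB box was found by pattern in 150 of them and not in 134. The number of C2H2 finger patterns ran from 0 to 36, with a median of 10.5, and 164 genes had at least 10. Zfp142 had the 36, and 6 genes, among them Zfp365, matched no finger pattern. The encoded proteins had a median of 586 residues and ran from 76 in Zfp706 to 2698 in Zfp292. Chromosome 7 held 71 of the genes, 44 of them with a KRAB box, and chromosome 17 held 31, of which 25 had one. Of the 284, 233 shared under 10% of their 31-base sequences with other genes. Values are uncertain for 11 genes (Zfp747, Zfp59, Zfp955a, Zfp970, Zfp971, Zfp97, Zfp973, Zfp966, Zfp781, Zfp965 and Zfp967) that shared over 50%, since reads can be divided among copies.

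To show what the transcripts that moved most look like, the coding DNA of the first finger and linker is given for those of 4 strong falls and the 4 rises found in both genotypes that hold a complete unit. Zfp532 and Zfp407, which also fell strongly, are not shown. The bases come from the GENCODE M21 transcript on GRCm38, and capitals mark the 15 bases of the linker.
Zfp62: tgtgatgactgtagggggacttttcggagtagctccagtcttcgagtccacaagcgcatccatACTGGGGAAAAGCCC
Zfp148: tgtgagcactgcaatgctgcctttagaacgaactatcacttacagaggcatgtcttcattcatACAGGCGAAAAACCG
Zfp637: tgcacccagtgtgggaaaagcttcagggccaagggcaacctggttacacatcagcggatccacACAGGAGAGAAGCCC
Zfp664: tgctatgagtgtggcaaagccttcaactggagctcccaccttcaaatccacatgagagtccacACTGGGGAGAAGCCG
Zfp597: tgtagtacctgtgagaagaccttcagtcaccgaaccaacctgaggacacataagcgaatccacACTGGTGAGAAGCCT
Zfp239: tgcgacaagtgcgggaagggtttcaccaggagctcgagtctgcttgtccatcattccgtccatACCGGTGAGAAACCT
Over the 15 pairs of these 6 units, the 63 finger bases were 39.7% to 65.1% identical and the linker bases 66.7% to 86.7%. Zfp318 and Zfp827 held no such complete unit. Across the genes, 1285 units in 215 members used 280 different DNA sequences for the linker, and the commonest made up 8.72% of the units.

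The bases around the start codon, where an initiating ribosome settles, are given for 7 of these genes, with the start codon in capitals.
Zfp62: ttgaagacaaccATGgaggat
Zfp148: ttatacttaagcATGaacatt
Zfp318: ctcccggtagccATGtaccgc
Zfp637: gcaggagtggacATGtttggg
Zfp664: ataggaaaaaaaATGatctac
Zfp597: tcctttccccagATGgcgtcc
Zfp239: caggcagtccacATGgctgag
A purine stood 3 bases before the start codon in 5 of these 7, and the 2 without one, Zfp597 and Zfp239, were both higher in polysome. Over the Zfp genes with a start context, 80.4% had this purine (n = 270), and 86.4% of protein-coding genes with a mean of 200 or more had it (n = 10845). G followed the start codon in 59.3% and 52.6% of them. The share with the purine was 82.6% among the Zfp genes lower in WT polysome and 80.4% among those not called, and 60% among the 5 that were higher. In TG it was 77.8% among the lower and 83.3% among the 12 higher genes, so the order of the shares was not the same in the genotypes.

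Per kb of exon, where genes can be compared, levels ran from 22.6 to 4390. Zfp365 stood apart at 4390 ± 426 (mean ± SD of the normalized value per kb, n = 12 libraries). Zfp365 encodes a protein known in human as a binding partner of DISC1, and its lowest library (3772) lay above the highest library of any other of the 10 members with the largest mean value. Zfp106 followed at 976 ± 431 per kb and Zfp706 at 915 ± 257. Their order turned with the fraction: in WT input Zfp106 stood at 1195 ± 392 per kb and Zfp706 at 715 ± 175 (SD, n = 3), and in WT polysome at 656 ± 141 and 1189 ± 177. Over all libraries their ranges over libraries overlapped, as did those of Zfp148 (727 ± 319), Zfp207 (616 ± 178), Zfp91 (518 ± 125), Zfp644 (485 ± 155), Zfp871 (444 ± 95.9) and Zfp638 (442 ± 125). Zfp451, which encodes a SUMO ligase, was lowest of the 10 per kb at 266 ± 33.7. The median of all 284 was 132 per kb. At the threshold, Zfp768, Zfp747 and Zfp628 lay just inside with means of 204, 202 and 201, and Zfp78, Zfp786 and Zfp433 just outside with 195, 195 and 192.

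Sequencing depth, as an estimate, was 62.5 to 85.9 M reads for input and 76.4 to 102 M for polysome libraries. The 284 genes together took 0.623% to 0.762% of the nuclear protein-coding signal in input and 0.599% to 0.688% in polysome libraries. Shank3 itself ran from 2121 to 5858 in WT input and 5456 to 17501 in TG input, and from 1501 to 5848 and 5012 to 12626 in polysome, so the ranges of the genotypes overlapped in both fractions. Markers of medium spiny neurons, the principal striatal cells, were above 0 in at least 1 library in 12 of 12 genes, and so were markers of astrocytes (6 of 6) and oligodendrocytes (6 of 6). The same held for markers of cortical excitatory neurons (7 of 7), microglia (6 of 6), endothelium (5 of 5) and the ependyma and choroid plexus (4 of 4). Choroid plexus and ependymal markers differed widely within groups, with sums from 537 to 10388 in WT input, 806 to 15833 in TG input, 786 to 17006 in WT polysome and 1044 to 33733 in TG polysome. In such bulk RNA, fewer cells of a type and less RNA per cell cannot be told apart. Whether the 3 libraries of a group stem from different mice is not in the labels, and the p-values speak only for the spread between these libraries, which may be technical.

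The comparison of polysome with input asks which synaptosomal transcripts are relatively richer or poorer among those bound by several ribosomes. In WT, 48 of the 284 Zfp genes were lower in polysome and 5 were higher (limma, adjusted p under 0.05). Over all 16962 genes tested, 8.59% were lower and 5.36% higher, so 16.9% of Zfp genes against 8.59% fell and 1.76% against 5.36% rose. Among protein-coding genes with a mean of 200 or more, 11.4% were lower and 7.04% higher. The median log2 difference was -0.17 in Zfp genes and 0.026 in all genes, and the middle 50% of Zfp genes ran from -0.53 to 0.12. With the library number as a block, 84 were lower and 14 higher. Of all 16962 genes 29.8% then passed, with 2694 lower and 2358 higher. The 53 calls became 27 without input library 2, 16 without input library 3, and 31, 29 and 18 without polysome libraries 1, 2 and 3. Values are relative to the other transcripts of a library, not the fraction of a transcript's copies on ribosomes.

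The same comparison in TG, tested in the same fit and so with a shared estimate of the spread, gave 38 Zfp genes lower and 12 higher. The background was 9.86% lower and 8.19% higher over all genes, against 13.4% and 4.23% of Zfp genes. Among protein-coding genes with a mean of 200 or more it was 12.9% lower and 11.02% higher, so the share of falls in TG was near that of genes of like level. The median was -0.11 against 0.030 in all genes. With the block, 70 were lower and 28 higher, where 33.2% of all 16962 genes passed (2809 lower and 2829 higher). The 50 calls became 26 in a fit of the 6 TG libraries alone, 24 and 23 without input libraries 2 and 3, and 17 and 18 without polysome libraries 1 and 3. In 29 genes the fall passed in WT and in TG (background 7.59%), and in 4 genes the rise did (4.52%). No gene passed in opposite directions. The 2 sets of differences had the same sign in 249 of 284 genes, with a Spearman correlation of 0.92 across genes, which are not independent replicates. Neither measure was computed over all genes, so this agreement is not shown to be particular to Zfp genes.

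**Figure D1:**
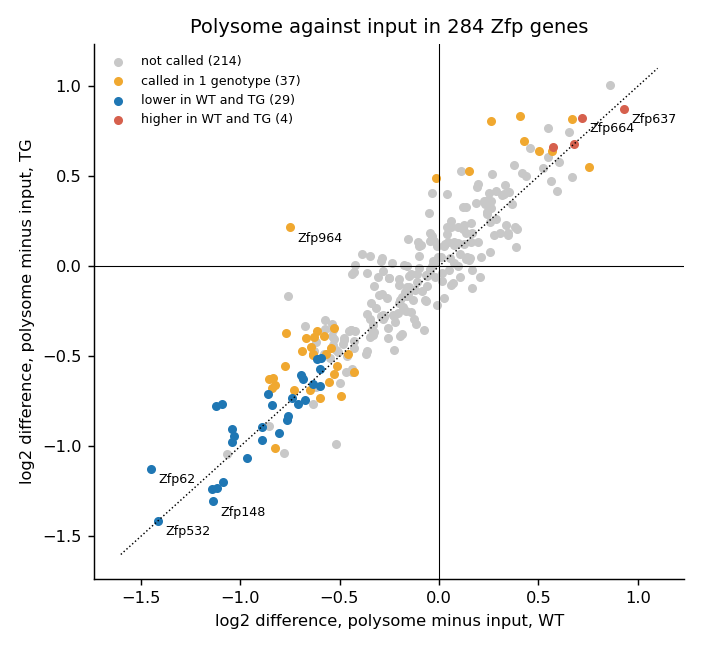
Log2 difference of polysome minus input in WT (x axis) and TG (y axis), 1 point per Zfp gene, coloured by whether the difference passed in either genotype, with the line of equal values dotted. Points run along the line from Zfp532 at -1.41 in WT and -1.41 in TG to Zfp637 at 0.93 and 0.87, and Zfp964 lies off it.

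Of 7 nuclear long noncoding RNAs, a measure of nuclear RNA in the preparation, 2 fell in WT and 3 in TG, and none rose. Their summed level was 20877 to 30521 in WT input and 9186 to 11145 in WT polysome, and 16985 to 30664 and 6794 to 9528 in TG. Astrocyte markers summed to 356294 to 371486 in WT input and 209987 to 332684 in WT polysome. In TG they summed to 337393 to 397506 and 226243 to 354081, which overlapped. Of the 6 astrocyte markers, 4 lay below 0 in WT and 5 in TG, and 2 fell in each. Median log2 differences in WT were -0.24 for astrocyte, -0.30 for cortical excitatory, -0.21 for oligodendrocyte and -0.12 for endothelial markers. They were 0.01 for microglial, 0.17 for medium spiny and 0.17 for choroid and ependymal markers. TG gave -0.29, -0.34, -0.23, -0.46, 0.09, 0.29 and 0.37 in that order. The part of these RNAs in the Zfp results was not tested.

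Zfp62 showed the largest fall in WT. It had 2665, 2969 and 2896 normalized counts in WT input and 1156, 939 and 1035 in WT polysome, a log2 difference of -1.45 ± 0.20 (SE, adjusted p = 0.00145, limma). All 3 polysome libraries lay below all input libraries. In TG the values were 2662, 3310 and 2164 in input and 1278, 1527 and 944 in polysome (-1.12, adjusted p = 0.00468), again without overlap. On GRCm38 it spans 49203292 to 49218816 of chromosome 11, and it encodes 25 finger patterns without a KRAB box. No Zfp gene had overlapping groups in a genotype where it was called, so lack of overlap adds nothing to a call here or below. Of those not called, 73 of 231 in WT and 55 of 234 in TG did not overlap either. The share over all genes was not counted.

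Zfp532 had 4740, 5184 and 4432 in WT input and 1873, 1667 and 1845 in WT polysome. Its protein belongs, in human cells, to a complex with ZMYND8 and the related proteins ZNF592 and ZNF687. TG libraries gave 4734, 4676 and 4761 against 1862, 2017 and 1487. The log2 difference was -1.41 ± 0.15 (adjusted p = 0.000171) in WT and -1.41 (adjusted p = 0.000144) in TG, and neither pair of groups overlapped. Its partners in that complex stood closer to 0, with Zfp592 at -0.47 ± 0.25 and Zfp687 at -0.20 ± 0.15 in WT, neither passing. With the block, Zfp592 passed (adjusted p = 0.0404) and Zfp687 did not (adjusted p = 0.341).

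Zfp148, which encodes a factor that binds GC-rich promoters, had the highest level per kb among the 15 largest falls in WT. Its values were 9588, 12700 and 8861 in WT input and 5108, 4646 and 4266 in WT polysome, and 10693, 11593 and 10009 against 4718, 4653 and 3740 in TG. Every polysome library lay below every input library. The log2 difference was -1.14 ± 0.17 (adjusted p = 0.00213) in WT and -1.31 (adjusted p = 0.000933) in TG. Zfp281, its close relative, stood at -0.46 ± 0.17 in WT, which passed with the block (adjusted p = 0.0194) and not without it (adjusted p = 0.0865).

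Zfp827, whose human counterpart brings the NuRD complex to telomeres, had 3271, 3973 and 3855 in WT input and 1745, 1719 and 1736 in WT polysome. Every polysome library lay below every input library, and the log2 difference was -1.09 ± 0.15 (adjusted p = 0.00176). In TG it was -1.19 (adjusted p = 0.00097).

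**Figure D2:**
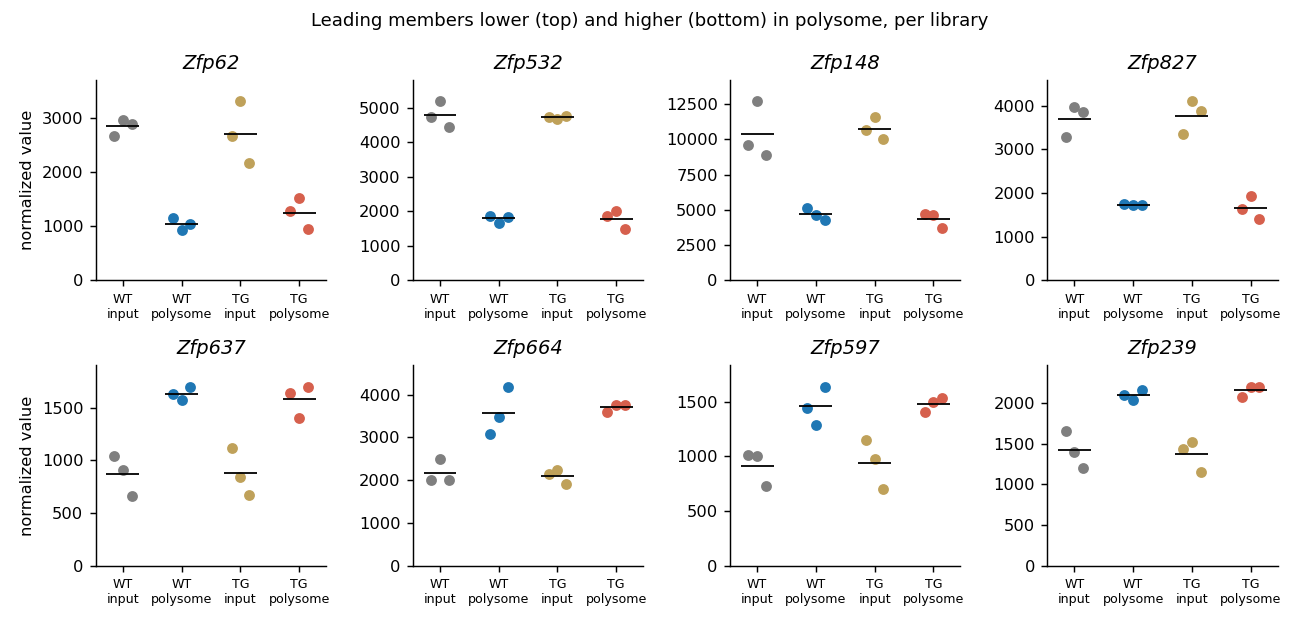
Normalized value (y axis, from 0) in each of the 12 libraries for Zfp62, Zfp532, Zfp148 and Zfp827 (top) and Zfp637, Zfp664, Zfp597 and Zfp239 (bottom), grouped by genotype and fraction, with points in the order of library numbers 1 to 3 and the group mean as a line. In the top row every polysome point lies below every input point of its genotype, and in the bottom row above, as groups did not overlap in any called Zfp gene.

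The other largest falls in WT were found in genes with and without a KRAB box. Those without one that encode long proteins were Zfp318 (-1.14 ± 0.24), needed in mouse B cells for the switch between IgM and IgD transcripts, Zfp407 (-1.12 ± 0.23), a regulator of fat cell genes, Zfp831 (-1.04 ± 0.20) and Zfp292 (-0.89 ± 0.21). KRAB genes were Zfp619 (-1.12 ± 0.16), Zfp583 (-1.09 ± 0.20), Zfp658 (-1.04 ± 0.20), Zfp39 (-1.03 ± 0.17), Zfp110 (-0.89 ± 0.21) and Zfp101 (-0.86 ± 0.20). Zfp143, which occupies many promoters and chromatin loop anchors, has no KRAB box either and stood at -0.96 ± 0.23. All 11 passed in TG too, with log2 differences from -1.24 to -0.71. Leaving out each library in turn, 14 of the 53 WT calls passed in all 6 fits, all of them falls: Zfp62, Zfp532, Zfp148, Zfp827, Zfp407, Zfp619, Zfp583, Zfp658, Zfp39, Zfp831, Zfp644, Zfp536, Zfp608 and Zfp715. In TG, 16 of 50 did, of which 15 were falls and Zfp664 was the rise. Among the 15 largest falls in TG, 3 were not in the WT 15: Zfp106 (-1.01 ± 0.30), Zfp644 (-0.92 ± 0.15) and Zfp84 (-0.85 ± 0.18).

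Rises were fewer, and those in WT belonged to genes for short proteins. Zfp637 had 1044, 906 and 666 in WT input and 1633, 1575 and 1694 in WT polysome, a log2 difference of 0.93 ± 0.21 (adjusted p = 0.0143). In TG it had 1119, 841 and 674 against 1640, 1404 and 1700 (0.87, adjusted p = 0.0145). The groups did not overlap in either genotype. Without input library 3 the WT rise was 0.75 (adjusted p = 0.0691), and without polysome library 3 it was 0.90 (adjusted p = 0.053). The TG rise had an adjusted p of at most 0.0618 when a library was left out, and did not pass without input library 3 or polysome libraries 1 or 3. Zfp637 lies on chromosome 6 at 117841180 to 117845956, and Zfp239 follows on the same strand at 117862100 to 117873291.

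Zfp664 rose in each comparison of fractions. Its values were 2001, 2493 and 1998 in WT input and 3069, 3481 and 4187 in WT polysome (0.72 ± 0.15, adjusted p = 0.0124), and the TG difference was 0.82 (adjusted p = 0.00616). Zfp597 had 1013, 1003 and 732 in WT input and 1444, 1290 and 1640 in WT polysome (0.68 ± 0.20, adjusted p = 0.0398). Its human counterpart is an imprinted gene. Zfp239, a mouse protein that binds DNA and RNA, had 1651, 1402 and 1200 in WT input and 2091, 2031 and 2164 in WT polysome (0.57 ± 0.16, adjusted p = 0.0306). Both rose in TG as well, by 0.68 and 0.66. With 1 library left out, these rises had an adjusted p of up to 0.0581 for Zfp664 in WT (input 3 or polysome 3 left out), 0.166 for Zfp597 (any of the 6) and 0.133 for Zfp239 (any but input 1). In TG, Zfp664 kept its call in all 6 such fits, Zfp597 in 1 and Zfp239 in 4.

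Zfp706 encodes the shortest protein of the group, with a single finger. It had 4448, 3531 and 2706 in WT input and 6877, 5144 and 5748 in WT polysome, which did not overlap (0.75 ± 0.23, adjusted p = 0.0449, and up to 0.183 with 1 library left out, passing only without input 1). In TG the difference was 0.55 ± 0.23 (adjusted p = 0.11, and 0.0297 with the block). A further 8 genes rose in TG and did not pass in WT. Zfp950 (0.84 ± 0.26 in TG), Zfp593 (0.82 ± 0.22), Zfp874b (0.81 ± 0.25), Zfp213 (0.69 ± 0.22), Zfp428 (0.64 ± 0.18), Zfp932 (0.64 ± 0.20), Zfp790 (0.53 ± 0.16) and Zfp870 (0.49 ± 0.16) had WT differences between -0.02 and 0.67. Of these, Zfp593 and Zfp428 passed in WT with the block (adjusted p = 0.0169 and 0.0232). In TG with 1 library left out, Zfp593, Zfp874b, Zfp213, Zfp932 and Zfp790 passed in 1 of 6 fits. Zfp950 and Zfp870 passed in 2 and Zfp428 in 3, and adjusted p reached 0.165 for Zfp213. That a genotype difference underlies these 8 rises was not shown, since no interaction passed. Zfp932 shares 48.3% of its 31-base sequences with other genes.

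Ribosome and RNA genes were a list of 12 members, of which 5 fell in WT and 2 in TG, and none rose (8.59% of all genes fell in WT and 9.86% in TG). Their median log2 difference was -0.63 in WT and -0.44 in TG. This list and the later ones were chosen with earlier results of these data known. The counts of a list therefore do not test whether its role goes with a difference. They also take no account of coding length, which is set beside the differences below. With the block 8 of the 12 fell and 1 rose in WT, and 7 fell and 1 rose in TG. Over all 16962 genes the block gave 2694 falls and 2358 rises in WT, and 2809 and 2829 in TG. Zfp622, whose product is a maturation factor of the large ribosomal subunit, had 1422, 1719 and 2223 in WT input and 1004, 1159 and 820 in WT polysome, a fall by 0.84 ± 0.21 on the log2 scale (adjusted p = 0.021). The groups did not overlap. The call was lost without input 2, input 3 or polysome 3 (adjusted p up to 0.0974), and TG gave -0.62 ± 0.21 (adjusted p = 0.0544, and 0.0449 with the block). Zfp598, the ubiquitin ligase that marks collided ribosomes, had 738, 743 and 774 in WT input and 652, 1003 and 752 in WT polysome. The 2 groups overlapped, with a log2 difference of 0.07 ± 0.18 in WT and -0.09 ± 0.18 in TG.

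Zfp106, an RNA-binding protein whose loss causes motor neuron degeneration in mice, was variable in input. It had 7820, 14071 and 15508 in WT input and 5972, 6020 and 8545 in WT polysome, and library 3 of polysome lay above library 1 of input. The WT difference was -0.82 ± 0.30 (adjusted p = 0.0802, and 0.0142 with the block), and TG gave -1.01 (adjusted p = 0.0338) with 8888, 17296 and 17299 against 6246, 7213 and 7233. Zfp207, a spindle assembly factor, fell in WT (-0.73 ± 0.23, adjusted p = 0.0493) and stood at -0.69 in TG (adjusted p = 0.0512, and 0.0216 with the block). The falls of Zfp106 in TG and Zfp207 in WT each passed in 1 of the 6 fits that left out a library, that without input 1, with adjusted p up to 0.122 and 0.175. Zfp658, Zfp871 (-0.63 ± 0.16) and Zfp800 (-0.63 ± 0.20) were the other falls of the list in WT. For the last 2 no role on the ribosome or RNA is given here, so the WT falls of the list are not all tied to such a role.

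Several RNA-binding members did not pass in either genotype. Zfp326, part of a complex linking transcription and splicing, stood at -0.86 ± 0.32 in WT, and Zfp638 at -0.54 ± 0.31. Both passed in WT with the block (adjusted p = 0.0107 and 0.0207), and Zfp326 did in TG (adjusted p = 0.00748). Zfp385a, which binds mRNA and takes part in its transport to dendrites in mice, stood at 0.60 ± 0.34 in WT and 0.42 ± 0.34 in TG, and with the block both passed (adjusted p = 0.015 and 0.047). Zfp346, which binds double-stranded RNA, was at 0.04 ± 0.19, and Zfp830 at -0.03 ± 0.20.

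Chromatin and transcription genes were a list of 18 members, of which 8 fell in WT, 8 fell in TG and none rose, beside 8.59% and 9.86% of all genes lower. The median was -0.52 in WT and -0.47 in TG. The 8 were the same in both genotypes: Zfp532, Zfp318, Zfp407, Zfp827, Zfp143, Zfp644, Zfp608 and Zfp280c. Zfp644, which binds the H3K9 methyltransferases G9a and GLP, went from 8370 ± 1080.2 in WT input to 4792 ± 508 in WT polysome (SD, n = 3), a log2 difference of -0.80 ± 0.15 (adjusted p = 0.0079). Zfp608 stood at -0.71 ± 0.13 and Zfp280c at -0.69 ± 0.18 in WT. Zfp518a (-0.57), Zfp592 (-0.47), Zfp280d (-0.23), Zfp687 (-0.20), Zfp518b (-0.18), Zfp266 (-0.15), Zfp451 (-0.10), Zfp280b (0.16), Zfp367 (0.20) and Zfp703 (0.67) did not pass in WT. With the block, 10 fell and 1 rose in WT: Zfp518a and Zfp592 were added to the falls, and Zfp703 was the rise (adjusted p = 0.0333). Over all 16962 genes the block gave 2694 falls and 2358 rises in WT.

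Neural genes were a list of 15 members, of which 5 fell in WT and 4 in TG, and none rose. Among all genes 8.59% and 9.86% fell. With the block 8 fell in WT and 8 in TG, and of all 16962 genes 2694 and 2809 fell. The median was -0.50 in WT and -0.50 in TG. Zfp804a, whose human counterpart lies at a locus tied to schizophrenia, had 1503, 1832 and 2020 in WT input and 1063, 1086 and 1156 in WT polysome (-0.69 ± 0.17, adjusted p = 0.0197), without overlap, and TG gave -0.62 (adjusted p = 0.0236). Its fall passed in 1 of the 6 WT fits with a library left out (without input 1) and in 2 of the 6 TG fits, while that of Zfp536 passed in all of them. Zfp536, a repressor of neuronal differentiation, went from 1786 ± 216 to 1053 ± 84.4 in WT (-0.76 ± 0.14, adjusted p = 0.00685) and from 1860 ± 13.2 to 1047 ± 65.8 in TG. Zfp148 and Zfp292 were the other falls in both genotypes, and Zfp941 (-0.85 ± 0.24) fell in WT and passed in TG with the block (adjusted p = 0.00896). With the trend on coding length removed, Zfp148 passed in both genotypes. Zfp804a, Zfp536, Zfp292 and Zfp941 then passed in neither (limma, adjusted p in WT 0.395, 0.248, 0.782 and 0.138).

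Zfp462, a chromatin gene of neural development, had 1910, 2932 and 2739 in WT input and 825, 1875 and 1964 in WT polysome, which overlapped. The difference was -0.78 ± 0.34 in WT (adjusted p = 0.14, and 0.00906 with the block) and -1.04 ± 0.34 in TG (adjusted p = 0.0501, and 0.00291 with the block). Developmental factors Zfp423 (-0.76 ± 0.64), Zfp503 (-0.50 ± 0.49) and Zfp521 (-0.14 ± 0.29) had wide errors in WT and did not pass. With the block Zfp423 passed in WT (adjusted p = 0.0141) and Zfp503 in TG (adjusted p = 0.0308). Zfp365, Zfp189, Zfp24, Zfp219 and Zfp335 lay between -0.12 and 0.10 in WT. Zfp365, the most abundant member, had 19631, 23628 and 21363 in WT input and 20776, 21995 and 26487 in WT polysome, which overlapped.

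Silencing genes were a list of 13 members, none of which passed in WT. Their median was 0.05 in WT and 0.12 in TG. Zfp445, which maintains imprints with Trim28, stood at -0.10 ± 0.22 in WT, and Zfp809, which silences retroviruses in mouse embryonic cells, at -0.28 ± 0.17. In TG, Zfp932 rose, and Zfp91, which encodes a ubiquitin ligase rather than a KRAB protein, fell by 0.55 ± 0.18 on the log2 scale (adjusted p = 0.0492). Each passed in 1 of the 6 TG fits that left out a library, with adjusted p up to 0.154 and 0.166. Zfp91 stood at -0.51 ± 0.18 in WT (adjusted p = 0.073, and 0.0161 with the block). Zfp58, Zfp169, Zfp30, Zfp382, Zfp420, Zfp655, Zfp426, Zfp90 and Zfp397 lay between -0.42 and 0.25 in WT.

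**Figure D3:**
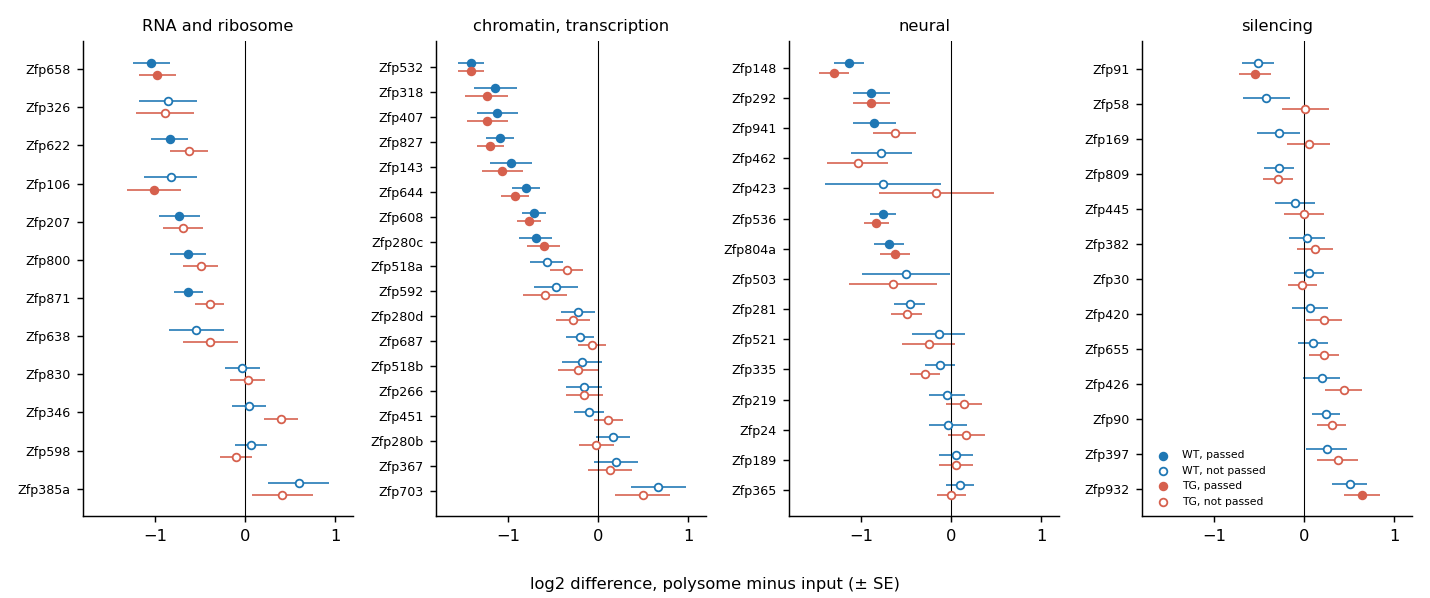
Log2 difference of polysome minus input with its standard error (x axis) for the members of the 4 role lists (y axis), in WT and in TG, with filled points where the difference passed. Filled points lie to the left of 0 in the first 3 panels, and the silencing panel holds 2 filled points, Zfp91 and Zfp932, both in TG.

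Partners that are no Zfp genes were set beside these lists. Over all 16962 genes, 8.59% fell and 5.36% rose in WT, and 9.86% fell and 8.19% rose in TG. The block gave 2694 falls and 2358 rises over all genes in WT, and 2809 and 2829 in TG. The counts that follow take no account of coding length. Of 25 genes of KRAB silencing and heterochromatin, 8 fell and none rose in WT, and 8 fell and 1 rose in TG. With the block, 12 fell and 4 rose in WT, and 13 fell and 3 rose in TG. The largest fall was that of the DNA methyltransferase Dnmt1 (-1.45 ± 0.22 in WT), and the rise in TG was that of Cbx1 (0.52 ± 0.16), a heterochromatin protein. Trim28, named outside the naming rule because the KRAB box binds it, stood at -1.41 ± 0.27 in WT (adjusted p = 0.00738) and -1.28 in TG (adjusted p = 0.00901). It had 5822 to 9832 in WT input and 2366 to 3297 in WT polysome, which did not overlap. Of 23 genes of the response to ribosome collisions, 8 fell and none rose in WT, and 7 fell and 1 rose in TG. With the block, 11 fell and 1 rose in WT, and 10 fell and 3 rose in TG. The largest fall was that of Ascc3 (-1.22 ± 0.24 in WT), a helicase that splits collided ribosomes, and the rise in TG that of Edf1 (0.63 ± 0.20), a sensor of collisions.

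Falls were found in genes with and without a KRAB box. In WT, 25 of 150 KRAB genes fell and none rose, and 23 of 134 without the box fell and 5 rose, with medians of -0.16 and -0.18. In TG, 16 KRAB genes fell and 5 rose, and 22 without it fell and 7 rose, with medians of -0.06 and -0.21. All genes gave 8.59% lower and 5.36% higher in WT, and 9.86% and 8.19% in TG. With the block, 39 KRAB genes fell and 1 rose in WT, and 30 fell and 13 rose in TG. Without the box, 45 fell and 13 rose in WT, and 40 fell and 15 rose in TG. Over all 16962 genes the block gave 2694 falls and 2358 rises in WT, and 2809 and 2829 in TG. Across the 284 genes, the number of finger patterns had a Spearman correlation of -0.13 with the WT difference, and the GC content of the transcript 0.01. The share of sequence in common with other genes had 0.10, and the level itself -0.12. These correlations are across genes, which share libraries and are not independent.

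Coding length followed the difference more closely than any of these. Its Spearman correlation with the difference was -0.54 in WT and -0.56 in TG across the 284 genes, and -0.61 and -0.60 across the 11248 protein-coding genes with a mean of 200 or more. The 5 genes that rose in WT encode 76 to 419 residues, and the 48 that fell encode 472 to 2698. Below 400 residues, the 29 Zfp genes had a median of 0.33 in WT, with 4 higher and none lower. From 400 to 599 residues the median of 118 genes was -0.05, with 1 higher and 11 lower. From 600 to 799 it was -0.28 over 80 genes, with 20 lower, and at 800 or more -0.52 over 57 genes, with 17 lower.

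Protein-coding genes with a mean of 200 or more, Zfp genes included, were set beside these by length. Their medians in WT were 0.31, -0.03, -0.23 and -0.46 in the same 4 classes. The share lower was 6.91% against 9.32% of Zfp genes from 400 to 599 residues, 14.7% against 25% from 600 to 799, and 30.3% against 29.8% at 800 or more. In TG these shares were 7.67% against 5.08%, 16.7% against 18.8%, and 33.8% against 29.8%. Below 400 residues, 15.2% of the protein-coding genes were higher against 13.8% of Zfp genes in WT, and 22.5% against 17.2% in TG. The median protein had 586 residues in Zfp genes and 480 in these protein-coding genes.

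**Figure D4:**
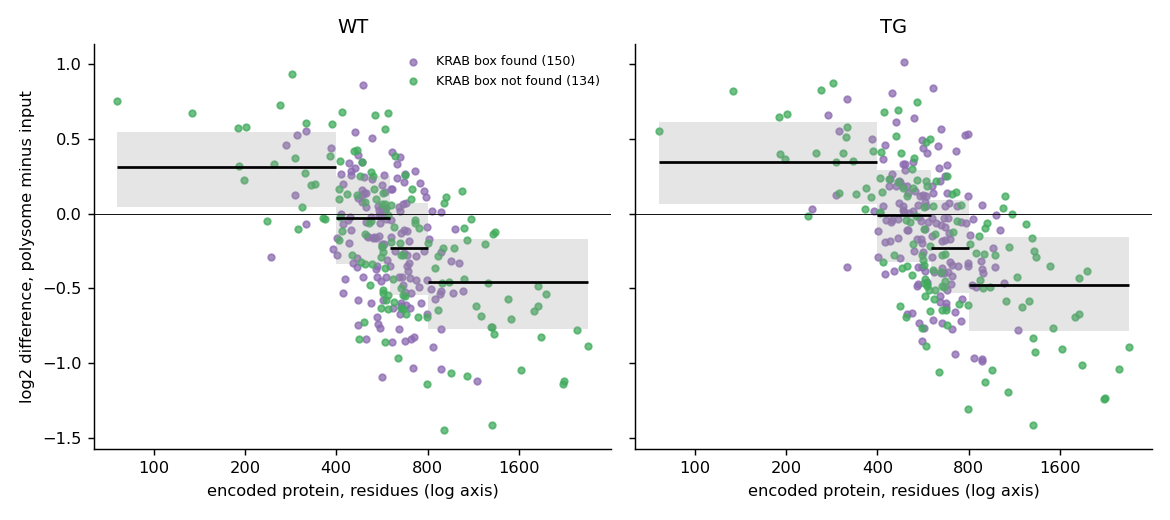
Log2 difference of polysome minus input (y axis) against the length of the encoded protein in residues (x axis, log scale) in WT (left) and TG (right), 1 point per Zfp gene, coloured by whether a KRAB box was found. Black lines and grey bands give the median and the middle 50% of protein-coding genes with a mean of 200 or more in 4 length classes, from 0.31 below 400 residues to -0.46 at 800 or more in WT, and the Zfp points descend with them.

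After the trend on coding length over all tested protein-coding genes was removed, an alternative chosen after the data were seen, 8 Zfp genes passed in WT and 11 in TG. Over all 14934 genes so tested, 3.06% passed in WT and 5.21% in TG. All 8 in WT were falls: Zfp62 (-1.15 ± 0.20), Zfp583 (-0.99 ± 0.20), Zfp532 (-0.95 ± 0.15), Zfp148 (-0.88 ± 0.17), Zfp622 (-0.83 ± 0.21), Zfp39 (-0.81 ± 0.17), Zfp827 (-0.72 ± 0.15) and Zfp619 (-0.72 ± 0.16). In TG, 8 fell, among them Zfp148, Zfp532, Zfp62, Zfp827 and Zfp39 again, with Zfp143, Zfp84 and Zfp866. Zfp738, Zfp607b and Zfp790 were higher in TG by this measure, at 0.79, 0.73 and 0.78, and the first 2 had not passed without the correction.

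The genotype comparisons ask whether the Shank3 transgene changes these transcripts. No Zfp gene passed between TG and WT in input, in polysome or in the difference of the 2 (interaction), with limma, and 0% of all genes passed in each. An unadjusted p under 0.05 was seen in 1 Zfp gene in input, 0 in polysome and 2 in the interaction. The standard error of a genotype difference had a median of 0.20 in input and 0.19 in polysome. In input, 281 of 284 genes lay within 0.5 of 0 on the log2 scale, with a range from -0.56 to 0.64, and in polysome all 284 did, from -0.29 to 0.44. Pairs of the same number gave median TG differences of 0.10, 0.03 and -0.14 in input and 0.07, 0.12 and -0.09 in polysome for numbers 1, 2 and 3. Beside these, the TG difference was above 0 for 12 of 12 medium spiny markers in input and in polysome, and below 0 for 7 of 7 cortical excitatory markers in input and 6 of 7 in polysome, none passing. Oligodendrocyte markers lay above 0 in 6 of 6 in input and 5 of 6 in polysome, and astrocyte markers in 4 of 6 in each. Microglial markers did in 2 of 6 and 5 of 6. Endothelial markers lay below 0 in 4 of 5 and choroid and ependymal ones in 3 of 4, in each fraction. Over all genes, 7703 of 16341 lay above 0 in input and 8709 of 16312 in polysome. The part of the markers in the Zfp values was not tested.

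Zfp964, a KRAB gene on chromosome 8 at 69654479 to 69666982, had the smallest p in all 3 genotype comparisons, none passing. It had 276, 329 and 264 in WT input, 202, 170 and 234 in TG input, 200, 167 and 150 in WT polysome and 278, 212 and 214 in TG polysome. TG libraries lay below all WT libraries in input and above all of them in polysome. As the gene was picked for its small p, this separation adds nothing to the p-values. The log2 difference of TG from WT was -0.53 ± 0.21 in input (unadjusted p = 0.0382) and 0.44 ± 0.20 in polysome (unadjusted p = 0.063), and the interaction was 0.96 ± 0.28 (unadjusted p = 0.00499, adjusted p = 1.00). In WT it fell in polysome (-0.75 ± 0.20, adjusted p = 0.0296, and up to 0.107 with 1 library left out, passing only without polysome 1), and in TG it stood at 0.22 ± 0.20.

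**Figure D5:**
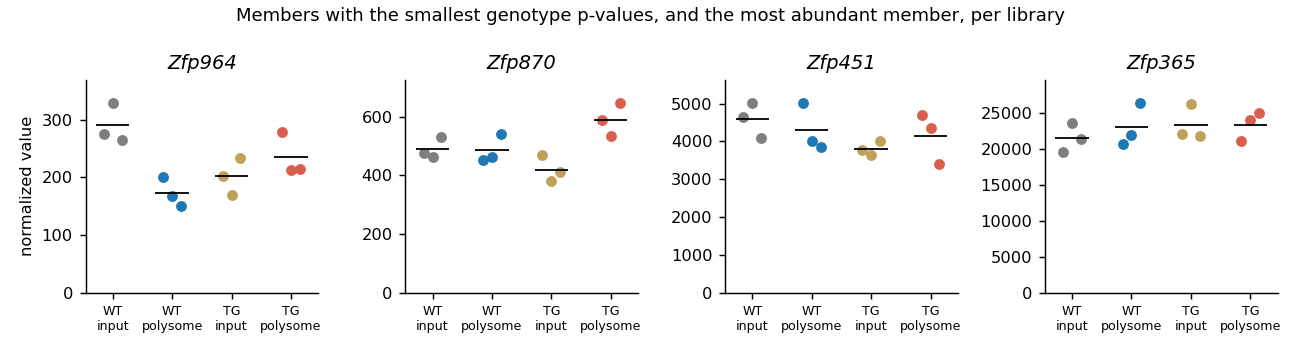
Normalized value (y axis, from 0) in each of the 12 libraries for Zfp964, Zfp870, Zfp451 and Zfp365, grouped by genotype and fraction, with points in the order of library numbers and the group mean as a line. TG points of Zfp964, a gene picked for its small p, lie below WT in input and above WT in polysome, with adjusted p-values of 1.00.

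The other smallest p-values in input, none passing, were those of Zfp451 (-0.26 ± 0.14), Zfp551 (-0.31 ± 0.19), Zfp874b (-0.46 ± 0.29) and Zfp871 (-0.22 ± 0.14). Zfp451, also picked for its small p, had 4637, 5013 and 4100 in WT input and 3768, 3646 and 4007 in TG input, with every TG library below every WT one. In polysome they were Zfp870 (0.28 ± 0.16), Zfp551 (-0.29 ± 0.18), Zfp758 (0.30 ± 0.19) and Zfp781 (0.36 ± 0.24). Zfp781 shares 97.7% of its sequence with other genes. In the interaction they were Zfp870 (0.51 ± 0.22, unadjusted p = 0.0414), Zfp715 (0.40 ± 0.23), Zfp790 (0.38 ± 0.23) and Zfp850 (0.46 ± 0.28). The median interaction was 0.08 in KRAB genes, 0.0009 in those without the box and 0.02 in all genes.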

How the data were processed

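RNA of 12 libraries was measured. The deposited table holds the authors' normalized signal per gene, not whole counts: 33.9% to 46.3% of low values (under 20 reads) were whole to within 0.1 read, so reads could not be recovered. Depth was estimated from that step. Per the submitters' processing notes, Salmon 1.1.0, R 3.6.2 and DESeq2 1.26.0 were used with GRCm38. The sources used here give neither the annotation nor the normalization model.

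Of the gene IDs, 21465 matched GENCODE M21, which gave symbols, lengths and transcripts. KRAB boxes and fingers were found by pattern in translated transcripts. Values were fitted as log2(value + 1) with limma 3.58.1 (R 4.3.3, variance trend), for genes with at least 3 libraries at 10 or more, with Benjamini-Hochberg adjustment over all genes and a threshold of 0.05. This scale understates changes of low genes. Fractions and the interaction used all 12 libraries in 1 fit, and genotype used 6. All 284 Zfp genes were tested. The fit of polysome against input in WT, without the block, was run on simulated data with independent libraries. The block, the other comparisons and libraries that vary together were not simulated.

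Deviations from group means correlated at 0.242 to 0.545 in all 18 pairs of same-numbered libraries of different groups, and from -0.413 to -0.00088 otherwise, so numbers were taken to pair libraries, from these values only. Deviations cancel out within a group, so positive values for same-numbered pairs make the other pairs negative on average. The negative values are thus no separate evidence of pairing. Within a genotype, input and polysome of a number formed a block. Named genes were the 15 largest rises and falls called per comparison (5 smallest p if under 5 were called), the 10 largest means, 3 genes on either side of 200 and the role lists. Members and lists were chosen with earlier results of these data known. The start-codon sequence of 1 gene is not reported here.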

Additional observations from a re-analysis of the deposited data

How the results depend on the processing

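Counts of Zfp genes called between polysome and input (53 in WT and 50 in TG) moved by over 1.5 times under some settings. With the replicate block they were 98 in WT and 98 in TG. With the trend on exonic length removed the WT count was 34, and with the trend on coding length removed, chosen after the data were seen, 8 in WT and 11 in TG. With the 6 TG libraries alone the TG count was 26. Leaving out 1 library gave 16 to 47 in WT: 27 without input 2, 16 without input 3, 31, 29 and 18 without polysome 1, 2 and 3. It gave 17 to 62 in TG: 24 and 23 without input 2 and 3, 17 and 18 without polysome 1 and 3. Fewer samples enter these fits, and the cause of the other moves was not tested. TMM scaling, pseudocounts of 0.5 and 10, no filter, no variance trend, means of 100 or 400, and leaving out genes sharing over 50% of their sequence kept both counts within 1.5 times. The 3 genotype counts were 0 under every setting run, and the block changed none of them. Of the called differences of named genes, none reversed in any setting. Of the 58 genes of the role lists, 10 differences in WT and 16 in TG changed sign with the trend on coding length removed, none of them called. Zfp532, Zfp148, Zfp62, Zfp827 and Zfp39 passed in WT and in TG under every setting run. As an estimate, 1 read was worth 1.27 to 1.8 normalized counts in input and 0.614 to 0.846 in polysome libraries, which limits how finely low values are resolved.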
